A study of Gallus gallus with 66 samples.

Results

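Oleate-treated chicken preadipocytes were compared with control cultures at 72 h, within a lean and a fat line. The 12 arrays of this comparison, 6 of oleate and 6 of control cultures, were chosen by their labels (line, hour and treatment) from 66 arrays in 22 groups of 3. The groups were lean oleate 72 h and fat oleate 72 h, which had received 160 µg/ml oleate since 95% confluence (named 0 h), and lean control 72 h and fat control 72 h, which had been cultured in parallel without it. All cells came from abdominal fat of male birds aged 10 days, 15 birds pooled per line, with floating adipocytes spun off, red cells lysed and 1 passage in culture. The labels call the 3 arrays of each group biological replicates without saying whether they were separate pools, dishes or days. Each group may thus stand for a single pool of birds. All p-values measure only the spread between arrays of a group, estimated jointly over the 22 groups of all 66 arrays.

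Preadipocytes are the fibroblast-like precursors of fat cells. A fatty acid such as oleate, the most common monounsaturated one, is taken up, joined to coenzyme A by acyl-CoA synthetases, and then either stored as triglyceride in lipid droplets or burned in mitochondria. Fatty acids are also ligands of the PPAR nuclear receptors, whose targets include the droplet coat protein PLIN2, the lipase inhibitor ANGPTL4, the kinase PDK4 and the mitochondrial gatekeeper CPT1A. In chicken preadipocytes oleate is widely used to bring on lipid accumulation in culture.

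Levels are given on the deposited log2 scale, on which a difference of 1 is 2-fold, and they are not compared between genes. Deposited values under 1.613 were raised to it in processing, and 1.613 is called the lower limit of the scale below. A gene was called when the adjusted p (limma, Benjamini-Hochberg over 22060 probe sets) was under 0.05, and each of 10176 genes was represented by its brightest tested probe set. Errors beside differences are standard errors of the fit, and each group mean rests on 3 arrays. A rise or fall below is a level higher or lower than in control cultures of the same hour, unless 0 h is named. Of these genes 411 rose (4.04%) and 312 fell (3.07%) in oleate cultures in the mean over lines. A gene called in the mean over lines was not always called in each line alone. At the level of probe sets 1715 were called, 1149 higher and 566 lower, and 282 of the higher and 64 of the lower differed at least 2-fold. The 3 oleate arrays lay above the 3 control arrays in both lines for 361 genes (3.55%) and below them in both lines for 327 genes (3.21%). Pairs of arrays within a group correlated at r of 0.953 to 0.971 (12 pairs), against 0.937 to 0.969 for oleate and control arrays of the same line (18 pairs). The correlations are across probe sets of a pair of arrays and are a description.

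The cultures carried preadipocyte markers. Of 11 tested genes that define stromal preadipocytes, PDGFRA was not above the array median on all 12 arrays. The other 10 (PDGFRB, COL1A1, COL1A2, COL3A1, DCN, LUM, THY1, FN1, VIM and EBF1) were above it on all 12 arrays. Of 15 lymphocyte genes none was, and 10 were at the lower limit of the scale on 1 or more arrays. Macrophage genes were present: 10 of 12 defining genes were above the array median on all 12 arrays. In these bulk cultures fewer cells of a type and less RNA per cell cannot be told apart.

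A feature of the array labels bears on every value below. The names of all oleate arrays at 72 h are written with dots and those of all control arrays with low bars, so oleate treatment and name style cannot be told apart in this comparison. What the name style stands for is not given in the labels. The poly-A spike-in controls, bacterial transcripts added to the RNA before labelling and therefore not a product of the cells, were lower in oleate arrays for 34 of 36 probe sets (94.4%), with a median difference of -0.76. The hybridization spike-ins, added after labelling, gave 0 calls in 27. Contrasts across the same name styles without oleate could be formed in several ways, since uncultured cells of both lines have dotted names too. The only such contrast used here came from the −12 h (50% confluence) and 0 h groups. It was fat 0 h minus fat −12 h less the same difference in the lean line. It also holds any line difference in the effect of confluence. That name style contrast called 193 genes (1.9%), 126 higher and 67 lower, and the poly-A spike-ins were lower in it for 19 of 36 probe sets (median -0.69). Values of the contrast are given below for named genes in which it came near or passed the size of the oleate effect, and its part was not tested beyond subtracting it, an alternative added after the data were seen.

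Of the lipid droplet genes PLIN2 rose. PLIN2, which coats lipid droplets and is stabilized by them, read 10.80, 10.02 and 10.90 in lean oleate cultures, against 9.23, 9.21 and 9.03 in lean control cultures. In the fat line PLIN2 read 11.60, 11.51 and 11.27 in oleate cultures, against 9.69, 9.40 and 9.75 in control cultures. The oleate and control arrays did not overlap in either line. PLIN2 rose by 1.63 ± 0.207 in the mean over lines (adjusted p = 8.66e-08), by 1.42 in lean and by 1.85 in fat cultures, each called by itself, and its second probe set rose by 1.45. It was the only called gene of 11 tested members of the droplet coat and lipolysis list, beside 4.04% of all genes called higher. The median difference of the list was 0.01, against -0.03 over all genes tested. PLIN1 of the mature fat cell droplet (-0.64 ± 0.569, adjusted p = 0.58), the lipase PNPLA2 (-0.15, adjusted p = 0.603) and its inhibitor G0S2 (0.02, adjusted p = 0.977) were not called.

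Fatty acid handling at the cell surface and in the cytosol was called for 3 of 19 tested genes, all higher, beside 4.04% of all genes (median of the list 0.18). ANGPTL4, a secreted inhibitor of lipoprotein lipase, read 7.90, 6.39 and 7.44 in lean oleate cultures, against 6.25, 6.20 and 6.27 in lean control cultures. In the fat line it read 8.51, 8.34 and 8.67 in oleate cultures, against 6.86, 6.56 and 7.19 in control cultures. One lean oleate array stood just above the controls, and the others were well clear of them. ANGPTL4 rose by 1.32 ± 0.285 (adjusted p = 0.0012). By itself the fat line was called (adjusted p = 0.00909) and the lean line was not (adjusted p = 0.26). ACSL1, an acyl-CoA synthetase that activates long-chain fatty acids, read 8.14, 7.93 and 8.07 in lean oleate cultures, against 7.53, 7.39 and 7.45 in lean control cultures, and 8.64, 8.52 and 8.69 in fat oleate cultures, against 7.78, 7.38 and 7.76 in fat control cultures. The arrays of ACSL1 did not overlap in either line, and it rose by 0.79 ± 0.152 (adjusted p = 0.000237), while the mean of its 2 probe sets rose by 0.46 with an adjusted p of 0.0879. ACSL1 was likewise called in the fat line (adjusted p = 0.00265) and not in the lean line (adjusted p = 0.184). The name style contrast was -0.81 for ACSL1 and -0.80 for ANGPTL4 (adjusted p = 0.171 and 0.628), opposite in sign to their rises. FABP7, a cytosolic fatty acid carrier, rose by 0.72 ± 0.2 (adjusted p = 0.0158) with overlap in the lean line and a name style contrast of 0.44 (adjusted p = 0.75). That call ended when lean oleate replicate 1 (0.59, adjusted p = 0.0819), lean control replicate 3 (0.65, adjusted p = 0.0562) or fat oleate replicate 3 (0.65, adjusted p = 0.0512) was left out.

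The adipocyte carrier FABP4 and the fatty acid translocase CD36 were not called at 72 h. FABP4 read 10.59, 10.84 and 8.63 in fat oleate cultures, against 9.24, 7.40 and 7.01 in fat control cultures, and 8.76, 8.64 and 9.60 in lean oleate cultures, against 9.50, 9.28 and 9.05 in lean control cultures. Its arrays overlapped in both lines, and its difference was 0.93 ± 0.524 (adjusted p = 0.324), -0.28 in lean and 2.13 in fat cultures. The difference between lines did not pass the test (adjusted p = 0.704). For CD36 the difference was 0.96 ± 0.526 (adjusted p = 0.305), also with overlap in both lines. Lipoprotein lipase, LPL, differed by 0.16 ± 0.263 (adjusted p = 0.791).

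**Figure D1:**
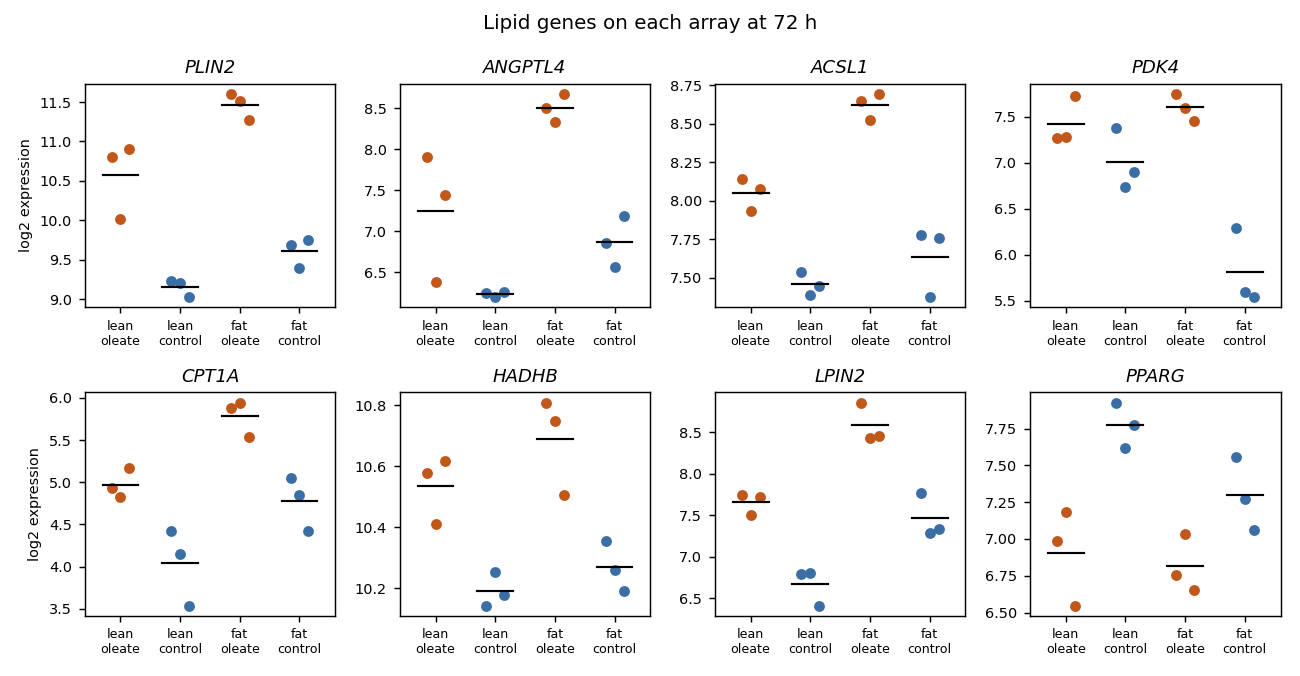
Deposited log2 expression of 8 lipid genes on each of the 12 arrays at 72 h, oleate cultures in orange and control cultures in blue, with 1 point per array and a bar at the mean of 3. PLIN2, ANGPTL4, ACSL1, CPT1A, HADHB and LPIN2 lie higher in all oleate arrays of each line, PDK4 separates in the fat line alone, and PPARG lies lower in all oleate arrays of each line; the vertical axes differ between panels.

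Genes of fatty acid oxidation and fuel choice were called for 4 of 29 tested members, 3 higher and 1 lower, beside 4.04% and 3.07% of all genes, with a list median of -0.01. PDK4, which holds back pyruvate oxidation when fat is burned, read 7.27, 7.27 and 7.73 in lean oleate cultures, against 7.38, 6.73 and 6.90 in lean control cultures. In the fat line PDK4 read 7.75, 7.60 and 7.46 in oleate cultures, against 6.29, 5.59 and 5.54 in control cultures. The lean arrays overlapped and the fat arrays did not. PDK4 rose by 1.11 ± 0.247 (adjusted p = 0.00178), with 0.42 in the lean line (adjusted p = 0.74) and 1.79 in the fat line (adjusted p = 0.000697). The difference between lines, 1.37 ± 0.493, did not pass the test (adjusted p = 0.528), and all fat control arrays of PDK4 were below all lean control arrays.

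CPT1A, which admits long-chain fatty acids to the mitochondrion, read 4.93, 4.82 and 5.17 in lean oleate cultures, against 4.43, 4.15 and 3.54 in lean control cultures, and 5.88, 5.94 and 5.53 in fat oleate cultures, against 5.06, 4.85 and 4.42 in fat control cultures. All oleate arrays were above the control arrays of their line. CPT1A rose by 0.97 ± 0.291 (adjusted p = 0.027), and its second probe set was called as well, at 1.39. The first probe set was called in neither line alone (adjusted p = 0.338 in lean and 0.161 in fat cultures). Leaving out 5 of the 12 arrays in turn ended the first call, namely lean oleate replicate 3 (0.92, adjusted p = 0.0639), lean control replicate 3 (0.85, adjusted p = 0.0932), fat oleate replicates 1 (0.95, adjusted p = 0.0575) and 2 (0.93, adjusted p = 0.0571), and fat control replicate 3 (0.88, adjusted p = 0.0724). HADHB, the β subunit of the mitochondrial trifunctional protein, rose by 0.38 ± 0.0837 (adjusted p = 0.00139). The short-chain hydroxyacyl-CoA dehydrogenase HADH fell by 0.33 ± 0.066 (adjusted p = 0.000449). In the fat line both were called (adjusted p = 0.0272 for HADHB and 0.0035 for HADH). In the lean line neither was (adjusted p = 0.143 and 0.239). HADH acts at the third step of β-oxidation and HADHB carries the thiolase of the last. The oleate and control arrays of each did not overlap in either line, and the directions were opposite.

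Enzymes that build triglyceride were called for 2 of 12 tested genes, 1 higher and 1 lower, beside 4.04% and 3.07% of all genes. LPIN2, a phosphatidate phosphatase that makes diacylglycerol, read 7.75, 7.50 and 7.72 in lean oleate cultures, against 6.79, 6.80 and 6.41 in lean control cultures, and 8.85, 8.43 and 8.45 in fat oleate cultures, against 7.77, 7.29 and 7.33 in fat control cultures. LPIN2 rose by 1.05 ± 0.13 (adjusted p = 3.57e-08), and no arrays overlapped within a line. The name style contrast for LPIN2 was 0.51 (adjusted p = 0.404), and 0.54 was left after subtraction (adjusted p = 0.525). Its 3 probe sets disagreed: 2 were called higher and the other read -0.40, so that their mean, 0.38, was not called (adjusted p = 0.15). GPAT4, an acyltransferase of the first step, fell by 0.28 ± 0.0903 (adjusted p = 0.0428), a call that 9 of 12 omissions of a single array ended, with an adjusted p of up to 0.117.

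Fatty acid synthesis and cholesterol synthesis gave few calls at this hour, beside 4.04% of all genes called higher and 3.07% called lower. Of 20 tested genes of fatty acid synthesis, elongation and desaturation, ELOVL1, an elongase of long saturated chains, rose by 0.64 ± 0.139 (adjusted p = 0.0012). The difference for ELOVL1 was 0.28 in the lean line and 1.00 in the fat line, and all 3 of its probe sets were called higher. HACD2, a dehydratase of the elongation cycle, fell by 0.44 ± 0.113 (adjusted p = 0.00711). In the name style contrast HACD2 differed by -0.61 (adjusted p = 0.158), larger than its fall, and 0.17 was left after subtraction. The fatty acid synthase FASN read 10.30, 10.38 and 10.27 in lean oleate cultures, against 10.26, 10.26 and 10.38 in lean control cultures, and 10.30, 10.14 and 10.17 in fat oleate cultures, against 10.14, 10.11 and 10.22 in fat control cultures. FASN differed by 0.03 ± 0.107 (adjusted p = 0.912), and the oleate-producing desaturase SCD differed by -0.08 ± 0.247 (adjusted p = 0.899). None of 26 tested genes of cholesterol synthesis and sterol sensing was called, against 3 at an unadjusted p under 0.05, and their differences ran from -0.39 to 0.48 with a median of -0.03. HMGCS1, which makes the HMG-CoA of the sterol pathway, differed by 0.14 ± 0.17 (adjusted p = 0.707) and INSIG1, a sterol-regulated brake on that pathway, by -0.13 ± 0.16 (adjusted p = 0.699).

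PPARG, the receptor that drives fat cell differentiation, was lower in oleate cultures. It read 6.98, 7.18 and 6.55 in lean oleate cultures, against 7.93, 7.62 and 7.77 in lean control cultures, and 6.75, 7.03 and 6.65 in fat oleate cultures, against 7.56, 7.27 and 7.06 in fat control cultures. Every oleate array was below every control array of its line. PPARG fell by 0.68 ± 0.179 (adjusted p = 0.0101), 2 of its 3 probe sets were called lower, and the range over the probe sets was -1.03 to -0.20. Neither line was called alone (adjusted p = 0.0566 in lean and 0.309 in fat cultures). The name style contrast for PPARG was 0.00. It was the only call among 31 tested adipogenic regulators and adipokines (list median -0.01), beside 3.07% of all genes called lower. CEBPA, its partner in differentiation, differed by 0.61 ± 0.494 (adjusted p = 0.533) with 4 of 12 arrays at the lower limit of the scale and its 2 probe sets opposite in sign. The adipokine ADIPOQ differed by -0.28 ± 0.333 (adjusted p = 0.702).

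Stromal genes fell more often than they rose. Of 26 tested preadipocyte and stromal genes 6 fell and 1 rose, with a list median of -0.11, beside 3.07% and 4.04% of all genes. Like all gene lists used here, this one had been drawn up with earlier results of these arrays known, so the list counts are a description. C1QTNF3, a secreted adipokine of the complement C1q family, gave the largest fall of any gene named here. It read 3.69, 5.65 and 4.32 in lean oleate cultures, against 7.82, 6.44 and 8.27 in lean control cultures, and 1.61 (the lower limit of the scale), 3.94 and 3.66 in fat oleate cultures, against 7.17, 6.88 and 5.39 in fat control cultures. The groups did not overlap, although the control arrays of C1QTNF3 were wide apart in each line. The fall was 3.18 ± 0.777 (adjusted p = 0.00496), and neither line was called alone (adjusted p = 0.205 in lean and 0.0607 in fat cultures).

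PTN, pleiotrophin, a heparin-binding growth factor of mesenchymal cells, read 5.73, 7.61 and 6.51 in lean oleate cultures, against 8.95, 8.31 and 8.52 in lean control cultures, and 5.69, 6.12 and 5.15 in fat oleate cultures, against 7.65, 7.74 and 6.59 in fat control cultures. PTN fell by 1.83 ± 0.483 (adjusted p = 0.0105) with no overlap within a line. It was called in neither line alone (adjusted p = 0.15 in lean and 0.164 in fat cultures). LRRC17, a secreted leucine-rich repeat protein, fell by 1.97 ± 0.503 (adjusted p = 0.00769). Its fat oleate arrays were wide apart, at 2.94, 5.50 and 6.69, against 7.08, 8.40 and 7.87 in fat control cultures, and without fat oleate replicate 1 the difference of LRRC17 was -1.45 and not called (adjusted p = 0.0642). GAS2, an actin-associated protein of growth-arrested cells, fell by 1.57 ± 0.262 (adjusted p = 2.35e-05), and TNFRSF11B, osteoprotegerin, fell by 1.25 ± 0.304 (adjusted p = 0.00494). The name style contrast for TNFRSF11B was -1.18 (adjusted p = 0.415), and its difference after subtraction was -0.06. The intermediate filament protein VIM was called at -0.14 ± 0.0377 (adjusted p = 0.0099). CD44, the hyaluronan receptor, was the member that rose, by 0.69 ± 0.197 (adjusted p = 0.0184).

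Of 69 tested matrix genes 5 were higher and 3 lower, beside 4.04% and 3.07% of all genes, with a list median of -0.14. THBS1, thrombospondin 1, a matricellular regulator of TGF-beta, read 9.45, 9.29 and 9.64 in lean oleate cultures, against 8.89, 8.66 and 8.88 in lean control cultures, and 10.48, 10.40 and 10.33 in fat oleate cultures, against 9.40, 9.27 and 9.27 in fat control cultures. THBS1 rose by 0.87 ± 0.112 (adjusted p = 1.05e-07), all 3 of its probe sets were called higher, and its name style contrast was 0.66 (adjusted p = 0.114). COL1A1, the main collagen I chain, rose by 0.24 ± 0.0393 (adjusted p = 1.67e-05), at levels of 13.05 to 13.42 that lie close to the highest value of the scale, 13.51. LAMB1, a laminin chain, rose by 0.56 ± 0.129 (adjusted p = 0.00251; the mean of its 2 probe sets was not called, adjusted p = 0.0732), the cross-linking enzyme LOXL2 rose by 0.74 ± 0.208 (adjusted p = 0.0163), and SPON1, a secreted adhesion protein, rose by 0.42 ± 0.129 (adjusted p = 0.0311). The name style contrast was as large as these rises or larger for LOXL2 (1.36, adjusted p = 0.0639) and SPON1 (0.85, adjusted p = 0.0592). COL6A2, a collagen VI chain, fell by 0.98 ± 0.242 (adjusted p = 0.0056) on its brightest probe set, while the second read -0.26 without a call. POSTN, periostin, fell by 0.64 ± 0.172 (adjusted p = 0.0128), and another laminin chain, LAMC1, fell by 0.45 ± 0.13 (adjusted p = 0.0213).

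**Figure D2:**
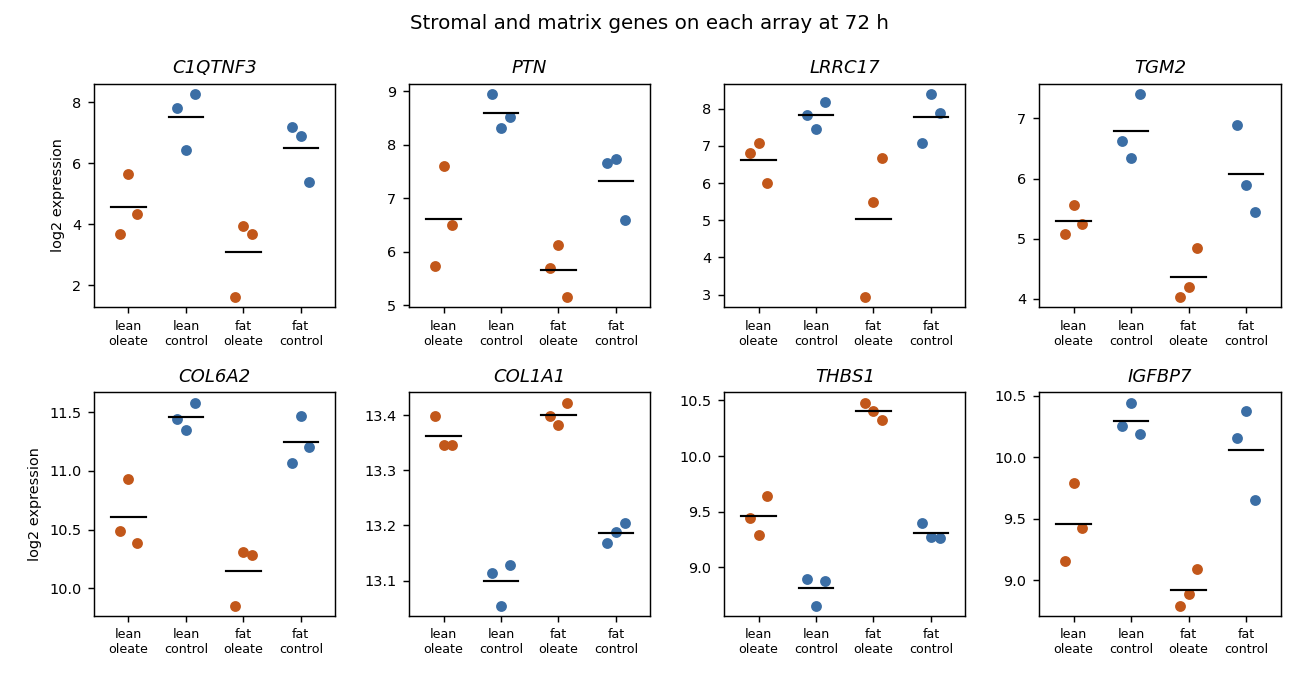
Deposited log2 expression of 8 stromal and matrix genes on each of the 12 arrays at 72 h, oleate cultures in orange and control cultures in blue, with 1 point per array and a bar at the mean of 3. Values under 1.613 were raised to it, which holds for 1 fat oleate array of C1QTNF3. C1QTNF3, PTN, LRRC17, TGM2, COL6A2 and IGFBP7 lie lower, and COL1A1 and THBS1 higher, in all oleate arrays of each line; the vertical axes differ between panels.

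TGM2, a transglutaminase that cross-links matrix proteins, fell by 1.61 ± 0.304 (adjusted p = 0.000186). It read 5.07, 5.56 and 5.24 in lean oleate cultures, against 6.62, 6.35 and 7.41 in lean control cultures, and 4.03, 4.20 and 4.84 in fat oleate cultures, against 6.89, 5.90 and 5.44 in fat control cultures. Among 18 tested contractile genes none rose and 2 fell, beside 4.04% and 3.07% of all genes. FHL1, a LIM domain protein of muscle and stressed fibroblasts, fell by 0.85 ± 0.259 (adjusted p = 0.0312), a call ended by 7 of 12 single-array omissions with an adjusted p of up to 0.123. VCL, vinculin of cell adhesions, fell by 0.26 ± 0.066 (adjusted p = 0.00708) on its brightest probe set, while another of its 3 read 0.33, and without fat oleate replicate 3 the difference was -0.20 and not called (adjusted p = 0.0533). Smooth muscle actin, ACTA2, differed by -0.50 ± 0.259 (adjusted p = 0.275), although every oleate array was below every control array of its line.

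Signalling genes were called for 4 of 72 tested members, 3 higher and 1 lower (median 0.03), shares near or below the 4.04% and 3.07% of all genes. SMAD6, an inhibitor of BMP signals, read 10.92, 10.49 and 10.95 in lean oleate cultures, against 10.15, 10.31 and 9.98 in lean control cultures, and 11.26, 11.11 and 11.31 in fat oleate cultures, against 10.20, 10.03 and 10.39 in fat control cultures. SMAD6 rose by 0.83 ± 0.142 (adjusted p = 3.63e-05). SMAD7, which acts in the same way on TGF-beta signals, rose by 0.79 ± 0.184 (adjusted p = 0.00293), and AXIN2 of the Wnt pathway by 0.86 ± 0.196 (adjusted p = 0.00217). AXIN2 had 1 of 2 probe sets called, and their mean, 0.60, was not called (adjusted p = 0.051). The name style contrast was 0.42 for SMAD6 and 0.57 for SMAD7 (adjusted p = 0.597 and 0.573). In none of these 3 did oleate and control arrays overlap within a line. IGFBP7, a secreted IGF-binding protein, read 9.16, 9.79 and 9.43 in lean oleate cultures, against 10.25, 10.44 and 10.19 in lean control cultures, and 8.80, 8.89 and 9.09 in fat oleate cultures, against 10.16, 10.37 and 9.65 in fat control cultures. IGFBP7 fell by 0.99 ± 0.207 (adjusted p = 0.000875).

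Inflammatory genes were called for 6 of 42 tested members, 5 higher and 1 lower, beside 4.04% and 3.07% of all genes, with a list median of 0.21. SAA, the acute phase protein serum amyloid A, read 8.48, 9.46 and 8.10 in lean oleate cultures, against 7.31, 7.04 and 6.24 in lean control cultures, and 10.44, 11.04 and 9.36 in fat oleate cultures, against 8.81, 6.78 and 8.45 in fat control cultures. The groups did not overlap within a line but were wide apart inside each group, and SAA rose by 2.04 ± 0.484 (adjusted p = 0.00377). EXFABP, a chicken lipocalin that binds fatty acids and siderophores, rose by 1.78 ± 0.492 (adjusted p = 0.0152) with overlap in both lines. The chemokine CCL4 rose by 0.32 ± 0.0699 (adjusted p = 0.00157) on 1 of 2 probe sets, and their mean, 0.47, was not called (adjusted p = 0.55). The TNF receptor TNFRSF1B rose by 0.58 ± 0.186 (adjusted p = 0.042). IRAK2, a kinase of interleukin 1 and Toll-like receptor signals, rose by 0.47 ± 0.123 (adjusted p = 0.0085), but without fat control replicate 2 the difference of IRAK2 was 0.39 and not called (adjusted p = 0.0555). The cytokine IL18 fell by 0.65 ± 0.164 (adjusted p = 0.00699) on 1 of 2 probe sets, and their mean, -0.49, was not called (adjusted p = 0.0903).

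Macrophage markers stood higher beside these genes, without a call. All 12 defining macrophage genes had positive differences, from 0.38 to 1.39 with a median of 0.64, and 2 of them had an unadjusted p under 0.05. Their mean level per array ran from 6.81 to 7.77 in lean oleate cultures, against 5.38 to 7.10 in lean control cultures, and from 7.21 to 8.44 in fat oleate cultures, against 6.50 to 7.98 in fat control cultures. The ranges overlapped in both lines. CD74, the invariant chain of MHC class II, differed by 0.66 ± 0.237 (adjusted p = 0.0748), with all oleate arrays above the control arrays of their line and 1 of its 3 probe sets called. LYZ had arrays at the lower limit of the scale, and no other defining macrophage gene did. The part of macrophage RNA in the rise of SAA, EXFABP and the others was not tested. Of 32 tested interferon response genes none was called and 1 had an unadjusted p under 0.05, with a median of 0.00 in lean and -0.84 in fat cultures.

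Among the markers of other cell types, 1 of 17 tested endothelial genes was called higher, beside 4.04% of all genes. PECAM1, an adhesion molecule of endothelial cells and leukocytes, rose by 1.23 ± 0.316 (adjusted p = 0.00791), with overlap in the lean line and a name style contrast of 0.78 (adjusted p = 0.704). The mean level of the 17 endothelial genes per array was 4.86 to 5.26 in lean oleate and 4.74 to 5.52 in lean control cultures. In the fat line it was 5.15 to 5.43 in oleate and 4.79 to 5.27 in control cultures. Of these genes 8 (PECAM1, VWF, CDH5, CLDN5, ERG, SOX18, LYVE1 and ENG) were above the array median on all 12 arrays. Another 5 (KDR, TEK, TIE1, SOX17 and TAL1) were at the lower limit of the scale on 1 or more arrays. None of the tested lymphocyte (15), erythroid (7), mesothelial and epithelial (8) or skeletal muscle (5) genes was called.

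VEGFA, the vascular growth factor that hypoxia and stress induce, rose by 1.29 ± 0.223 (adjusted p = 5.09e-05). It read 11.07, 10.39 and 10.69 in lean oleate cultures, against 8.96, 8.96 and 8.64 in lean control cultures, and 11.02, 10.80 and 11.63 in fat oleate cultures, against 9.78, 10.79 and 10.74 in fat control cultures. The lean arrays were far apart and the fat arrays nearly met. The name style contrast for VEGFA was 1.15 (adjusted p = 0.195), and 0.14 was left after subtraction. With it in the glycolysis and hypoxia list were the glycogen-targeting subunit PPP1R3C (0.58 ± 0.18, adjusted p = 0.0337) and the pyruvate kinase PKLR (0.20 ± 0.0663, adjusted p = 0.0485), 3 of 34 tested genes in all, beside 4.04% of all genes called higher. The calls of PPP1R3C and PKLR each ended in 8 of 12 omissions of a single array, with an adjusted p of up to 0.133 for PPP1R3C and up to 0.153 for PKLR. PPP1R3C had a name style contrast of 0.69 (adjusted p = 0.421), larger than its rise, and -0.11 was left after subtraction.

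Stress and housekeeping programmes gave scattered calls. The counts in this paragraph stand beside 4.04% of all genes called higher and 3.07% called lower. Of 38 tested genes of the unfolded protein and integrated stress response, VEGFA was the one that rose. PHGDH, the first enzyme of serine synthesis, fell by 1.69 ± 0.432 (adjusted p = 0.00775), and without lean oleate replicate 1, which was far below the other lean oleate arrays, the difference of PHGDH was -1.28 and not called (adjusted p = 0.0618). The pseudokinase TRIB2 fell by 0.36 ± 0.106 (adjusted p = 0.0228), a call lost in 4 of 12 omissions. In the name style contrast TRIB2 differed by -0.40 (adjusted p = 0.433), larger than its fall, and 0.04 was left after subtraction. In the oxidative stress list TALDO1, transaldolase of the pentose phosphate pathway, was the single call of 32, at 0.27 ± 0.0705 (adjusted p = 0.00768), which ended without fat control replicate 2 (0.22, adjusted p = 0.0546) and in the mean of its 3 probe sets (0.11). In the cell cycle list 2 of 65 rose, the cyclin CCND1 (0.34 ± 0.106, adjusted p = 0.0381) and the kinetochore protein CENPF (1.11 ± 0.353, adjusted p = 0.04), each lost in 9 of 12 omissions, and the 5 probe sets of CENPF ran from -0.58 to 1.11. CENPF had a name style contrast of 1.46 (adjusted p = 0.363), larger than its rise, and -0.35 was left after subtraction. In the oxidative phosphorylation list 3 of 52 fell, NDUFA4 by 0.22 ± 0.0556, ATP5C1 by 0.21 ± 0.0549 and NDUFA5 by 0.29 ± 0.0949 (adjusted p = 0.00668, 0.00972 and 0.0453), the last lost in 10 of 12 omissions. NDUFA4 had a name style contrast of -0.34 (adjusted p = 0.0881), larger than its fall, and 0.12 was left after subtraction. The mean of the 2 probe sets of ATP5C1, -0.25, was not called (adjusted p = 0.0649). Means over all probe sets of a gene also missed the threshold for TRIB2 (adjusted p = 0.159), CCND1 (0.113), CENPF (0.353) and GPAT4 (0.234), and by a small margin for PPP1R3C.

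The 12 largest rises and the 12 largest falls without overlap in either line were set beside the name style contrast. That contrast called 126 of 10176 genes higher and 67 lower. The rises were SAA, MARF1, HERC2, CPNE3, NUDCD1, CLSPN, TSPAN18, PLIN2, CEP350, FBXL15, GAPVD1 and AKAP13, from 2.04 to 1.55. Of these 7 were also called higher in the name style contrast (58.3%): the ubiquitin ligase HERC2 (1.68), the copine CPNE3 (2.69; its other probe set differed by 0.10 at 72 h), NUDCD1 (3.98), the tetraspanin TSPAN18 (2.83), the centrosomal protein CEP350 (2.08), the endocytic GAPVD1 (1.68) and the kinase anchor AKAP13 (1.65). AKAP13, for example, read 8.88, 8.93 and 8.86 in lean oleate cultures, against 7.42, 7.07 and 7.25 in lean control cultures, and 9.16, 9.18 and 9.69 in fat oleate cultures, against 7.87, 7.90 and 7.88 in fat control cultures, a rise of 1.55 ± 0.116 (adjusted p = 3.58e-14). After the name style contrast was subtracted, the difference for AKAP13 was -0.10, for HERC2 0.15 and for NUDCD1 -2.21 (adjusted p = 0.0473). PLIN2 (0.36), SAA (-0.15) and FBXL15 (-1.10) were not called in the name style contrast, nor were MARF1 (2.18, adjusted p = 0.254) and the checkpoint protein CLSPN (1.60, adjusted p = 0.377), whose values were as large as their own rises or nearly so. FBXL15, an F-box protein, lost its call of 1.61 ± 0.487 in 5 of 12 omissions (adjusted p up to 0.0972). Its mean was 4.08 in oleate and 2.47 in control cultures, beside an array median of 4.17. CLSPN had 2 arrays at the lower limit of the scale, both lean control arrays, and MARF1, TSPAN18 and FBXL15 had 1 control array each there, so the size of these rises depends on that limit.

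The name style contrast had larger standard errors than the oleate effect, 1.554 against 0.777 for C1QTNF3. A missing call in it thus does not show that a difference was absent. In it 67 of 10176 genes were called lower, and none of the 12 largest falls was called. Besides C1QTNF3, LRRC17, PTN, PHGDH, TGM2 and GAS2 they were the spectrin SPTBN5 (-2.17 ± 0.396), UNC80 of the NALCN channel complex (-1.98 ± 0.358), CPED1 (-1.92 ± 0.38, its other probe set -0.88), the sarcomere protein MYOM2 (-1.88 ± 0.587), ASL1, named for argininosuccinate lyase (-1.50 ± 0.405), and the potassium channel KCNK2 (-1.48 ± 0.352). SPTBN5 read 5.77, 6.42 and 6.41 in lean oleate cultures, against 7.61, 7.92 and 9.11 in lean control cultures, and 4.68, 4.01 and 5.10 in fat oleate cultures, against 5.80, 8.30 and 6.66 in fat control cultures. Its adjusted p was 0.000115. CPED1 and ASL1 each had 4 arrays at the lower limit of the scale, all of them oleate arrays. On all 12 arrays CPED1 read at most 4.18 and ASL1 at most 3.67, beside an array median of 4.17. C1QTNF3, UNC80 and MYOM2 had 1 oleate array each at the lower limit. The size of the falls of CPED1, ASL1 and these genes depends on that limit. MYOM2 lost its call in 8 of 12 omissions, with an adjusted p of up to 0.139.

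Over all genes, 86 of the 411 that rose were also higher in the name style contrast (20.9%, and 68.3% of the 126 higher in it), and 5 of the 312 that fell were also lower in it (1.6%, and 7.46% of the 67 lower in it). With that contrast subtracted, which adds its own error, 103 probe sets were called in the mean over lines. Of 60 named genes called in the main comparison 1 kept its call after subtraction, ACSL1 (1.60, adjusted p = 0.0217), 47 were no longer called, and 12 had the opposite sign. The name style contrast of ACSL1 was -0.81, opposite in sign to its rise of 0.79, so subtraction made its difference larger. The same holds for ANGPTL4, with a contrast of -0.80 beside a rise of 1.32. Differences after subtraction were 1.28 for PLIN2 (adjusted p = 0.237), 2.13 for ANGPTL4 (adjusted p = 0.118), 0.88 for PDK4 (adjusted p = 0.625) and 0.86 for CPT1A (adjusted p = 0.712), none of them called. For the falls they were -0.68 for PPARG (adjusted p = 0.585), -2.61 for C1QTNF3 (adjusted p = 0.65), -1.64 for PTN (adjusted p = 0.647) and -1.07 for IGFBP7 (adjusted p = 0.371), also without a call.

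**Figure D3:**
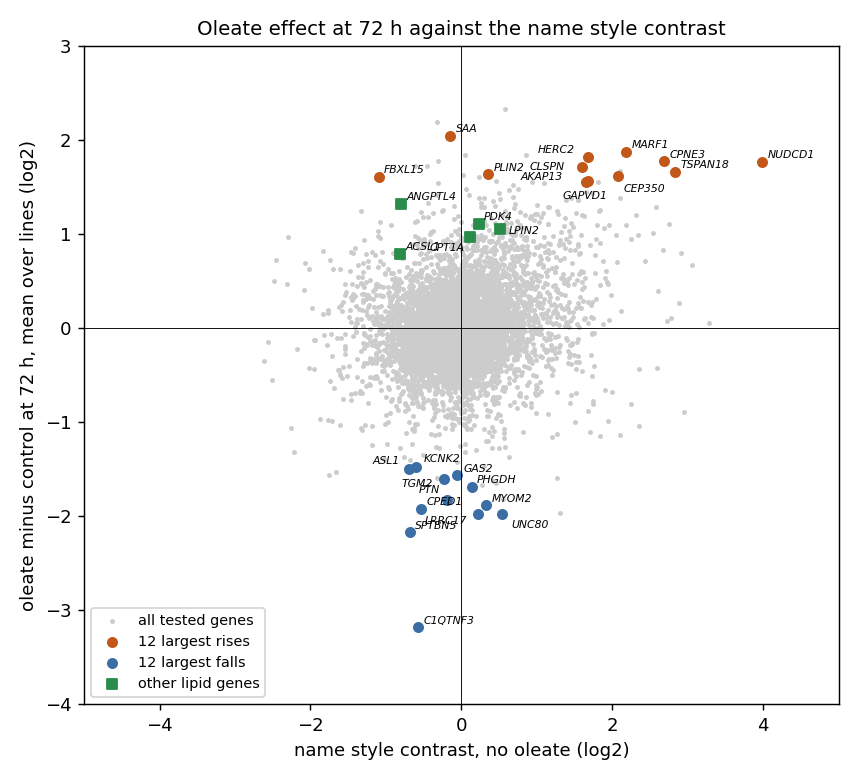
Oleate minus control at 72 h in the mean over lines (vertical axis, log2) against the name style contrast formed without oleate (horizontal axis, log2), 1 point per tested gene. Most of the 12 largest rises (orange) lie to the right, NUDCD1 farthest at 3.98, while PLIN2, SAA and the other lipid genes (green) and the 12 largest falls (blue) lie between -0.81 and 0.54 on the horizontal axis.

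The lean and the fat line were then compared. In the lean line 135 genes rose (1.33%) and 26 fell (0.256%), and in the fat line 237 rose (2.33%) and 168 fell (1.65%). Of the genes that rose, 92 did so in both lines (68.1% of those of the lean and 38.8% of those of the fat line), and of those that fell, 9 did (34.6% and 5.36%). More calls in one line do not show a difference between them. The test of the difference itself, fat minus lean, called 1 gene (0.00983%) by its brightest probe set and 2 probe sets in all, against 1363 probe sets at an unadjusted p under 0.05. None of the 723 genes called in the mean over lines was called in it. SLIRP, an RNA-binding protein of mitochondria, read 6.10, 5.57 and 6.48 in lean oleate cultures, against 5.06, 4.76 and 4.44 in lean control cultures. In the fat line SLIRP read 5.53, 5.60 and 5.95 in oleate cultures, against 6.85, 6.78 and 6.63 in control cultures. It thus rose by 1.30 in the lean line (adjusted p = 0.0142) and fell by 1.06 in the fat line (adjusted p = 0.0436), a difference of -2.36 ± 0.456 (adjusted p = 0.0459). The other call was a second probe set of HEPH, a ferroxidase of the multicopper family (2.62 ± 0.489, adjusted p = 0.0459), chosen after its value was seen. It differed by -0.57 in lean and 2.05 in fat cultures, while the brightest probe set of HEPH gave 0.05 and 0.20. Leaving out single arrays gave between 0 and 7 calls for the line difference. It gave 0 calls without lean oleate replicate 1, lean control replicate 1 or 3, any fat oleate array, or fat control replicate 3. The calls of SLIRP and HEPH thus ended in each of these omissions. That of SLIRP also ended without lean oleate replicate 3 and without fat control replicate 2, where no probe set was called lower. The poly-A spike-ins were lower in the same contrast for 4 of 36 probe sets (median -0.54), with medians of -0.47 in lean and -1.10 in fat cultures.

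**Figure D4:**
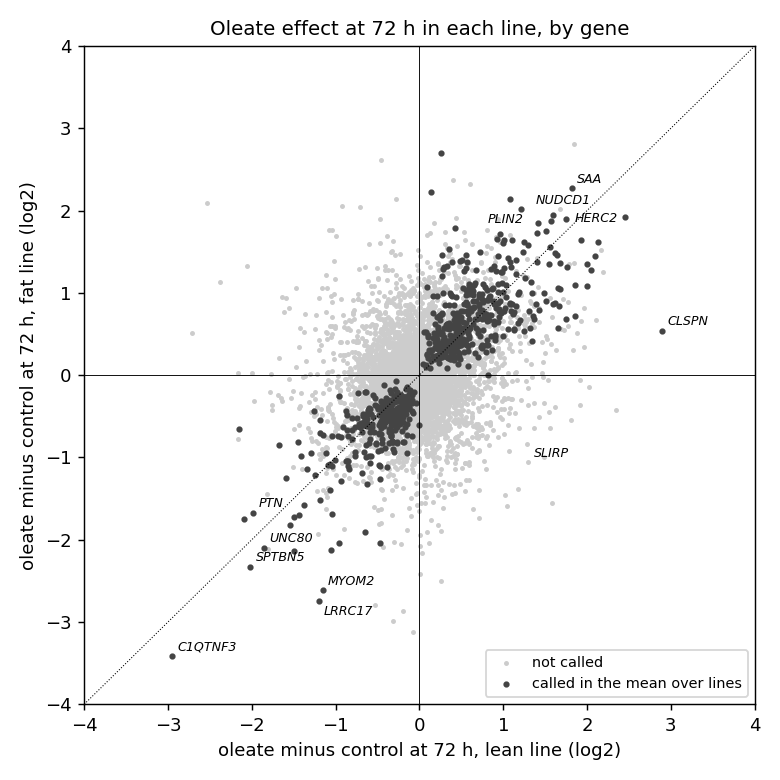
Oleate minus control at 72 h in the lean line (horizontal axis, log2) against the fat line (vertical axis, log2), 1 point per tested gene, dark where the gene was called in the mean over lines; the dotted line marks equal effects. C1QTNF3 lies lowest on both axes among the called genes, CLSPN, with 2 lean control arrays at the lower limit of the scale, lies at 2.89 in lean and 0.54 in fat cultures, and SLIRP lies at 1.30 and -1.06.

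The effect at 72 h was set against the mean of the effects at 12, 24 and 120 h, each measured with controls of its own hour. The oleate arrays of the other hours are dotted and the control arrays low-bar too, except that the label of 1 fat oleate array at 120 h gives no name style. A constant shift between name styles would thus cancel in this contrast apart from that array, and the poly-A spike-ins gave 0 calls of 36 in it (median -0.17). It called 1 gene (0.00983%), against 887 probe sets at an unadjusted p under 0.05. That gene was UNC80, which read 2.83, 2.69 and 2.73 in lean oleate cultures at 72 h, against 4.48, 4.34 and 4.99 in lean control cultures, and 1.61, 3.12 and 1.97 in fat oleate cultures, against 4.53, 5.26 and 3.21 in fat control cultures. The effect on UNC80 in the mean over lines was 1.56 at 12 h, -0.01 at 24 h, -1.98 at 72 h and -0.38 at 120 h, so that 72 h minus the other hours was -2.37 ± 0.414 (adjusted p = 0.0133). Without the array that has no name style, an alternative added after the data were seen, the value for UNC80 was -2.34 ± 0.418 (adjusted p = 0.0221) and 1 probe set was called. Only 1 of its 3 probe sets was called at 72 h, and the highest of them read -0.06. Leaving out single arrays gave between 0 and 2 calls in this contrast. It gave 0 calls without lean control replicate 3, fat oleate replicate 1 or 3, or fat control replicate 1 or 2. The call of UNC80 in this contrast thus ended in each of these omissions.

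For the lipid genes the 72 h effect was not told apart from that of the other hours. PLIN2 differed by 2.10 at 12 h, 1.86 at 24 h, 1.63 at 72 h and 1.84 at 120 h, and ANGPTL4 by 1.16, 1.81, 1.32 and 1.80 at the same hours. PPARG differed by 0.26, -0.20, -0.68 and -0.45, was called at 72 h alone, and gave -0.55 ± 0.207 for 72 h minus the other hours (adjusted p = 1). Calls of FABP4 and CD36 were present at the earlier hours: FABP4 differed by 2.29 at 12 h (adjusted p = 0.0024), 1.83 at 24 h (adjusted p = 0.021), 0.93 at 72 h and 1.29 at 120 h, and CD36 by 2.06 (adjusted p = 0.0069), 1.72 (adjusted p = 0.033), 0.96 and 1.44. The sterol genes ran downward by hour, with list medians of 0.61 at 12 h, 0.19 at 24 h, -0.03 at 72 h and -0.26 at 120 h, so that 72 h lies near their crossing of 0. HMGCS1 differed by 0.72 at 12 h (adjusted p = 0.0033) and -0.33 at 120 h (adjusted p = 0.23), and INSIG1 by 0.81 (adjusted p = 0.00038) and -0.67 (adjusted p = 0.0032), with none of the 26 sterol genes called in 72 h minus the other hours.

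**Figure D5:**
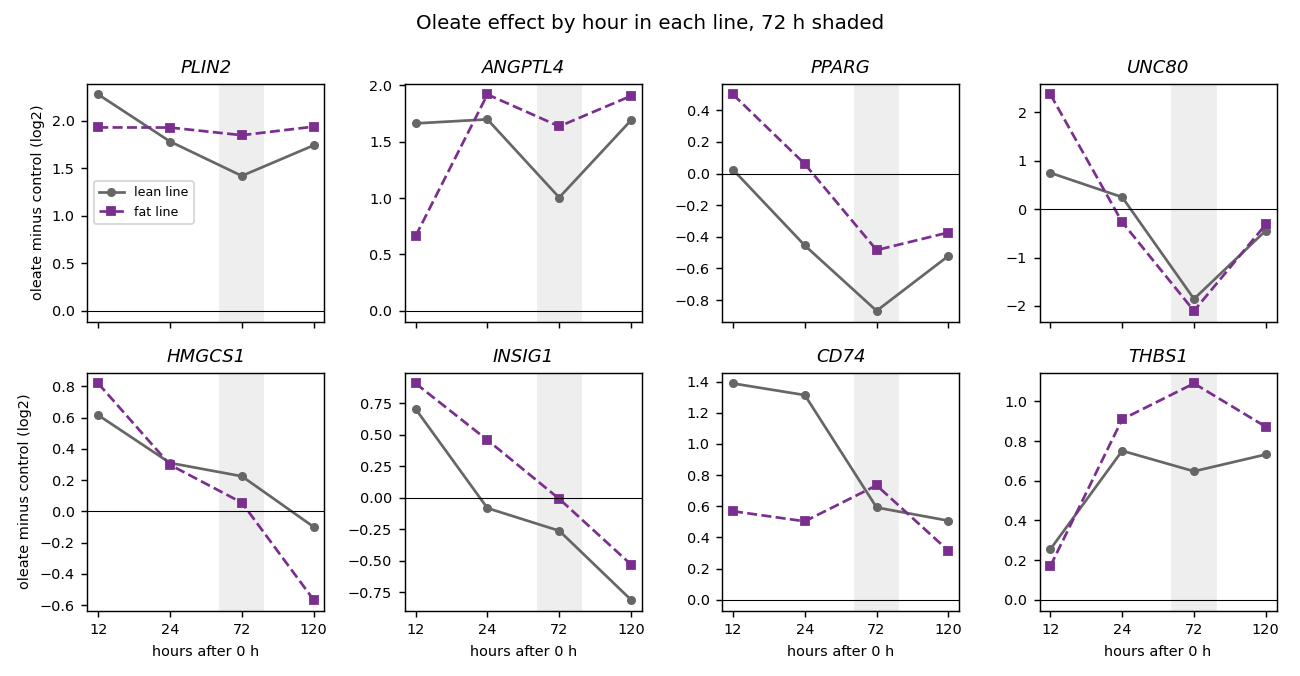
Oleate minus control (vertical axes, log2) at 12, 24, 72 and 120 h after 0 h in the lean line (solid, circles) and the fat line (dashed, squares) for 8 genes, with 72 h shaded; each point is a difference of 2 means of 3 arrays. PLIN2 and ANGPTL4 stay above 0 at every hour in both lines, HMGCS1 and INSIG1 run from above to below 0, and UNC80 lies lowest at 72 h in both lines.

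Oleate cultures at 72 h were finally set against the 0 h cultures, whose array names have the same dotted style but which differ from them by 72 h of culture. This contrast shares its oleate arrays with the main comparison, so the values are given side by side and not counted as a repeat. The poly-A spike-ins were higher in it for 6 and lower for 2 of 36 probe sets (median -0.12). It called 674 genes higher (6.62%) and 594 lower (5.84%). Of the 411 genes that rose over controls, 29 were higher and 34 lower than at 0 h. Of the 312 that fell, 33 were lower and 15 higher than at 0 h. Among the 12 largest rises over controls, NUDCD1 (-0.92, adjusted p = 0.00884) and CLSPN (-1.14, adjusted p = 0.0497) were called lower than at 0 h. PLIN2 rose by 0.89 (adjusted p = 0.00326), ANGPTL4 by 0.86 (adjusted p = 0.0399), ACSL1 by 0.45 (adjusted p = 0.0448) and ELOVL1 by 0.55 (adjusted p = 0.00554) over 0 h, beside 1.63, 1.32, 0.79 and 0.64 over controls of the same hour. PDK4 (0.51, adjusted p = 0.18), CPT1A (0.05, adjusted p = 0.947), LPIN2 (-0.27, adjusted p = 0.186), HADHB (0.14, adjusted p = 0.283) and PPARG (-0.38, adjusted p = 0.16) were not called against 0 h. SAA differed from 0 h by -1.19 (adjusted p = 0.102) and THBS1 by -0.10 (adjusted p = 0.627). PTN fell by 1.76 (adjusted p = 0.0119), CPED1 by 1.71 (adjusted p = 0.00201) and UNC80 by 1.77 (adjusted p = 0.000802) relative to 0 h, whereas C1QTNF3 (1.08, adjusted p = 0.402), GAS2 (0.51, adjusted p = 0.209) and TGM2 (-0.30, adjusted p = 0.591) were not called.

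Some genes called against 0 h were not called against controls. In the unfolded protein and integrated stress list 15 of 38 genes were higher than at 0 h and none lower, beside 6.62% and 5.84% of all genes, while 1 was higher and 2 lower than in controls at 72 h. Among them CHAC1, a glutathione-degrading enzyme of that response, rose by 2.27 over 0 h and differed by -0.96 from controls, and the serine synthesis enzyme PSAT1 rose by 1.28 and differed by -0.70. The lipolysis inhibitor G0S2 rose by 1.02 over 0 h (0.02 against controls), and ACSS2, an acetyl-CoA synthetase, rose by 1.50 (0.10 against controls). In the macrophage list 2 of 29 genes, CD74 by 0.81 and PTPRC by 0.87, were lower than at 0 h, a share near the 5.84% of all genes, and they differed by 0.66 and 0.38 from controls of the same hour.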

How the data were processed

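The deposited series table held log2 values for 66 Affymetrix chicken arrays, 38535 probe sets each. Per the submitters' processing notes the authors used MAS5 (version not given); further normalization is not given in the sources used here. The log base was inferred from the deposited values (-5.232 to 13.51, median 4.17 on each array), whose sorted arrays differ by at most 0.0615, so a change shared by all genes cannot be seen. Values under 1.613 (median over arrays of the 20th percentile) were raised to it. After 96 control probe sets were set apart, 22060 exceeded the array median on all 3 arrays of 1 or more groups and were tested. Platform annotation named 1 gene for 27178 probe sets, several for 177 and none for 11180.

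limma 3.58.1 (R 4.3.3) fitted 22 group means to all 66 arrays (44 residual degrees of freedom), with trended, robust moderation and Benjamini-Hochberg adjustment. The script was tested on simulated data. The members and lists were chosen with earlier results of these data known. Named were the 12 largest rises and falls without overlap in either line, up to 5 genes per direction of the line and hour differences, up to 4 called genes per list, and fixed anchor genes. VIM, CD44, POSTN, LOXL2, LAMC1, SPON1, EXFABP, TNFRSF1B, PECAM1, PNPLA2, PLIN1, G0S2, CHAC1, PSAT1, ACSS2 and PTPRC were added after their values were seen. The number of arrays limits the precision. Alternatives are given in the closing section.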

Additional observations from a re-analysis of the deposited data

Results flagged for a closer look

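SLIRP differed between the lines under the same contrast: the oleate effect in the fat line minus that in the lean line was -2.3563, from 1.30 in lean and -1.06 in fat cultures (limma, adjusted p = 0.0459). Its second probe set and its mean effect over lines were not called. A second probe set of HEPH gave a line difference of 2.615 (limma, adjusted p = 0.0459), and the brightest probe set of HEPH gave 0.15. UNC80 differed between hours, with 72 h minus the mean of the other hours at -2.3677 (limma, adjusted p = 0.0133). Its effect had the same sign in both lines at 12 h and at 72 h, positive at 12 h and negative at 72 h. Each of these calls ended in some omissions of a single array, named in the sections on the lines and the hours. The cause of these differences was not tested. The gap test for a single sample far from its group needs 4 or more samples and was not applied to these groups of 3; the effect of each array was measured by leaving it out.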

How the results depend on the processing

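Counts are of called probe sets. In the mean over lines 1715 were called, and the count lay between 1282 and 1708 when single arrays were left out. Such omissions gave 289 to 442 in the lean line (441 with all arrays), 529 (without fat control replicate 2) to 1040 in the fat line (1031 with all arrays; 560 without fat oleate replicate 1), 0 to 7 for the line difference and 0 to 2 for 72 h minus the other hours. Fitted on the arrays of each contrast alone, the counts were 274 in the lean line, 300 in the fat line, 0 for the line difference and 2 for the hours. Without a filter the line difference gave 0. With array weights they were 2726 in the mean, 1067 lean, 1552 fat, 29 for the line difference, 2 for the hours, 5114 against 0 h and 1013 for the name style contrast, which gave 905 with culture series as a random block. The share of higher calls in the lean line was 88.0%, against 70.4% with array weights, and in the fat line 71.0%, against 81.1% without fat control replicate 2. In the name style contrast it was 75.1%, against 85.3% on its arrays alone and 65.0% with array weights.

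With the name style contrast subtracted, an alternative chosen after seeing the data, 103 were called in the mean, 107 in the lean line (34.6% higher) and 23 in the fat line. The sign then turned for MARF1 (-0.30), CPNE3 (-0.92), NUDCD1 (-2.21), TSPAN18 (-1.17), CEP350 (-0.46), GAPVD1 (-0.12), AKAP13 (-0.10), SLIRP (-0.11), HACD2 (0.17), TRIB2 (0.041), PPP1R3C (-0.11), CENPF (-0.35), NDUFA4 (0.12), CEBPA (-1.31) and HMGCS1 (-0.077). In the mean over probe sets VCL turned to 0.10, and 14 of 60 named genes lost their call. Of those 60, between 49 and 55 kept it in each omission, 57 on the arrays of the contrast alone, 52 without the filter and 59 without the floor. The cause was not tested. With the replicate number as a block 2078 were called in the mean, 533 lean and 1269 fat, and 60 of 60 named genes kept their call. After group means were removed, same-numbered oleate and control arrays of a line correlated at -0.0942 to 0.14. Differently numbered ones correlated at -0.224 to 0.238, so the numbers were not taken as pairs.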
